A study of Mus musculus with 4 samples.

Results

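Small nuclear, nucleolar and cytoplasmic RNAs were compared between mitochondria isolated from mouse brown adipose tissue, which burns fat to make heat, and libraries called BAT-total. They were chosen by Ensembl biotype, with earlier results of these data known, and came to 359 of the 17259 genes of the table. Of these, 107 were small nuclear RNAs (snRNA), 119 small nucleolar RNAs (snoRNA), 15 small Cajal body RNAs (scaRNA), 30 of the class misc_RNA, 85 rRNA genes and 3 ribozymes, while the mitochondrially encoded rRNAs and tRNAs were not among them. A family was known from the symbol for 133 members and from a BLAST match to a named RNA for 133 more, and 93 had no family. The rRNA class held 82 genes of 5S type, so it mostly stands for 5S.

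RNA was sequenced from 2 libraries of isolated mitochondria (BAT-Mito) and 2 of BAT-total, all from brown fat of wild-type mice without any further treatment named. The treatment label of BAT-total speaks of tissue from which mitochondria were removed, its title of total, and the study also of total lysates, so BAT-total may hold the whole tissue or what the isolation left. The labels do not say whether the replicates came from separate animals, and p-values then measure only the spread between these libraries. The isolation was described for heart, with digitonin and RNase A applied to the pelleted mitochondria, and whether brown fat was handled in the same way was not stated.

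These RNAs work with proteins in known places, which makes them usual markers of compartments. In the nucleus, 7SK RNA holds back the elongation factor P-TEFb, the U RNAs carry out splicing, and snoRNAs and scaRNAs guide the modification of rRNA and of U RNAs. In the cytoplasm, 5S and 5.8S RNA are parts of the large ribosomal subunit, 7SL RNA is the core of the signal recognition particle that docks ribosomes at the endoplasmic reticulum, Y RNAs bind the Ro60 protein and vault RNA sits in the vault particle. RNase P RNA trims the leader of nuclear tRNAs, and whether it also serves mitochondria has long been debated, since mammalian mitochondria own an RNase P made of protein alone.

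The U RNAs are shown because U11, of the minor spliceosome, and U1 and U2, of the major one, differed in direction. All sequences here were read from the GENCODE M21 transcripts of GRCm38. Capitals mark TTTNTGG, searched on the sense strand as a plain form of the site where Sm proteins bind. It was held by 2 of 2 U11, 14 of 14 U2 and 27 of 30 U1 members, by 0 of 6 U5, 0 of 2 U12 and 0 of 39 U6 members, and by 17.3% of all members. The pattern asks for GG at its end and other forms were not searched. Its absence therefore does not show that an RNA lacks an Sm site.
Rnu11 (U11): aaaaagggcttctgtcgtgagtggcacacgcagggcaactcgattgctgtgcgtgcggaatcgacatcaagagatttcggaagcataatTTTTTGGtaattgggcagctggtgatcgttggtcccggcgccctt
Gm24890 (U11-like): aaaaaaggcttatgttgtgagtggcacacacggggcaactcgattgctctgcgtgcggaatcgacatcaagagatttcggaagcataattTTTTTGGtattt
Rnu1a1 (U1): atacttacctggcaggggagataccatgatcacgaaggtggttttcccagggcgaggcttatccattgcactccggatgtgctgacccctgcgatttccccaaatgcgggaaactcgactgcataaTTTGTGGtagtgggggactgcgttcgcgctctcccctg
Rnu2-10 (U2): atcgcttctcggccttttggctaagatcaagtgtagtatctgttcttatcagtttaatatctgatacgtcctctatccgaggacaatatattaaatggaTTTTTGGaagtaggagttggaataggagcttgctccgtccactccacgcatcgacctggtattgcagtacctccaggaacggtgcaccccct
Rnu11 lay at chr4:132270080-132270213 on the minus strand. Gm24890 matched it at 92.2% identity over a shorter length of 102 bases and lay inside Piwil2 (chr14:70428496-70428597, minus strand). No member matched a mitochondrial transcript at 90% identity or more over 50 bases.

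The last set shows a Y RNA of the cytoplasm, an RNA of the nucleoplasm and a nucleolar guide that passed the test. Rny3 is Y3 RNA (chr6:47781624-47781725, plus strand), and Rn7sk is 7SK RNA (chr9:78175303-78175633, minus strand), of which bases 1 to 241 are shown, the stretch that its copy Gm24447 shares without a difference. Gm25788 (chr4:123291344-123291474, plus strand) is a snoRNA inside Pabpc4, with the ACA box that stands 3 bases before the end of H/ACA guides in capitals.
Rny3: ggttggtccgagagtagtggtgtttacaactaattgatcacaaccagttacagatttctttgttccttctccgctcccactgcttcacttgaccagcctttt
Rn7sk: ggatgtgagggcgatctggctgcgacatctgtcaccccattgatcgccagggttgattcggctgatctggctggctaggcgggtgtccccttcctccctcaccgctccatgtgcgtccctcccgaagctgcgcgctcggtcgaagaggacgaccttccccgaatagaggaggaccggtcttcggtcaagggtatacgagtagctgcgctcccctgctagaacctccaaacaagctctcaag
Gm25788: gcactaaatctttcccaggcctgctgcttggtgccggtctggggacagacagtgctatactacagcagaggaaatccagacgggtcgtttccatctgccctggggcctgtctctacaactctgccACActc

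In the table, values are normalised counts, the authors' gene counts divided by a size factor per library. In BAT-Mito, 1 read was worth 8.322 units in replicate 1 and 6.901 in replicate 2, so reads could be recovered, 26288827 and 24910418 in all. Of these, 6961 and 6488 fell on the members and 49420 and 58238 on nuclear protein-coding genes. In BAT-total the normalised totals were 1590096 and 1905303, and the reads behind them are unknown. Markers of other organs moved with the BAT-Mito libraries: the summed liver genes Alb, Apoa1, Ttr and Serpina1a stood at 8338 and 601 units in BAT-Mito and at 143 and 4 in BAT-total, and the 4 muscle genes at 2522 and 738 against 238 and 500. The nuclear lncRNA Malat1 stood at 5476 and 807 in BAT-Mito and at 14512 and 14128 in BAT-total, so BAT-Mito replicate 1 held more of it than replicate 2. All 7 brown adipocyte markers were present in every library, with Ucp1 at 1290 and 3554 in BAT-Mito and 4819 and 4185 in BAT-total. The part of these markers in the results was not tested.

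For the test, limma was run on log2(normalised count + 1) over the 8215 genes with a mean of at least 10, of which 145 were members. A gene counted as called at an adjusted p (Benjamini-Hochberg) under 0.05. All fold changes below are BAT-Mito over BAT-total on this scale unless a share is named. Over all tested genes the median log2 fold change was -1.23, and over the tested members it was -0.36. With both BAT-Mito libraries above both BAT-total libraries stood 54 of the 145 members, beside 8.59% of all tested genes. Of the 54, 27 were copies of 1 5S sequence that reads cannot tell apart, so they do not count as separate observations. Both lay below in 63 of 145, beside 52.1% of all.

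Only 13 members passed the limma test, 1 higher and 12 lower in BAT-Mito. All genes were called higher in 0.803% and lower in 4.41%, so a share of 1 and of 12 in 145 members stood near and somewhat above this background. At an unadjusted p under 0.05 there were 16 higher and 34 lower, beside 3.2% and 14.9% of all genes. Of the 12 called lower, 11 had 0 reads in both BAT-Mito libraries, where limma sees no spread, and passed the filter through BAT-total alone. edgeR, run on the recovered reads with the deposited BAT-total values taken as reads, called 6 members higher and 14 lower, beside 2.17% and 2.5% of all genes, and 5 members were called by both tools. The limma counts rested on single libraries. They were 18 higher and 64 lower without BAT-Mito replicate 1, 31 and 48 without BAT-Mito replicate 2, and 0 and 0 without either BAT-total replicate, with the lone library taken to vary like the other group. Scaled by the total of all genes, which mitochondrially encoded RNAs dominate in BAT-Mito, 0 members were called higher and 144 lower.

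To compare classes without the size factors, the summed normalised count of a class was given as a percentage of that of the 12960 nuclear protein-coding genes of the same library. Ribozymes came to 0.0263% and 0.0206% in BAT-Mito and to 0.00481% and 0.00174% in BAT-total. The rRNA class had 11.3% and 9.08% against 5.60% and 5.61%, and misc_RNA 1.67% and 1.38% against 1.21% and 1.10%. In these 3 classes both BAT-Mito libraries lay above both BAT-total libraries, by 7.16-fold, 1.82-fold and 1.32-fold of the means. Small nuclear RNAs came to 0.907% and 0.544% against 1.09% and 1.05%, snoRNAs to 0.191% (95% Wilson interval 0.155 to 0.233%) and 0.0814% (0.0607 to 0.107%) against 0.351% and 0.322%, and scaRNAs to 0.0141% and 0.00869% against 0.0498% and 0.0441%. Intervals could be given for BAT-Mito and cover counting error only. Both BAT-Mito libraries lay below both BAT-total libraries in these 3 classes, by 1.47-fold, 2.47-fold and 4.12-fold of the means. With 2 libraries against 2 an exact two-sided permutation test cannot go below p = 0.333, and the class shares are given without a test. The directions rest on the denominator. With the sum of all nuclear genes, most of it pseudogenes in BAT-Mito, the log2 ratios were negative for all 6 classes, -1.36 for ribozymes, -3.33 for rRNA and -3.79 for misc_RNA against 2.84, 0.86 and 0.40. Without members that overlap an exon of another gene that of misc_RNA was 0.12, and without its highest member, Rn7sk, 1.14. Of the families below, U11 then overlapped between the groups, at 0.00841% and 0.00558% against 0.00604% and 0.00644%, and each of the others lay lower in both BAT-Mito libraries. Without BAT-Mito replicate 1 the log2 ratio of snoRNAs went from -1.31 to -2.05, and without BAT-total replicate 1 that of ribozymes from 2.84 to 3.75. In bulk libraries fewer cells of a type and less RNA per cell cannot be told apart.

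**Figure D1:**
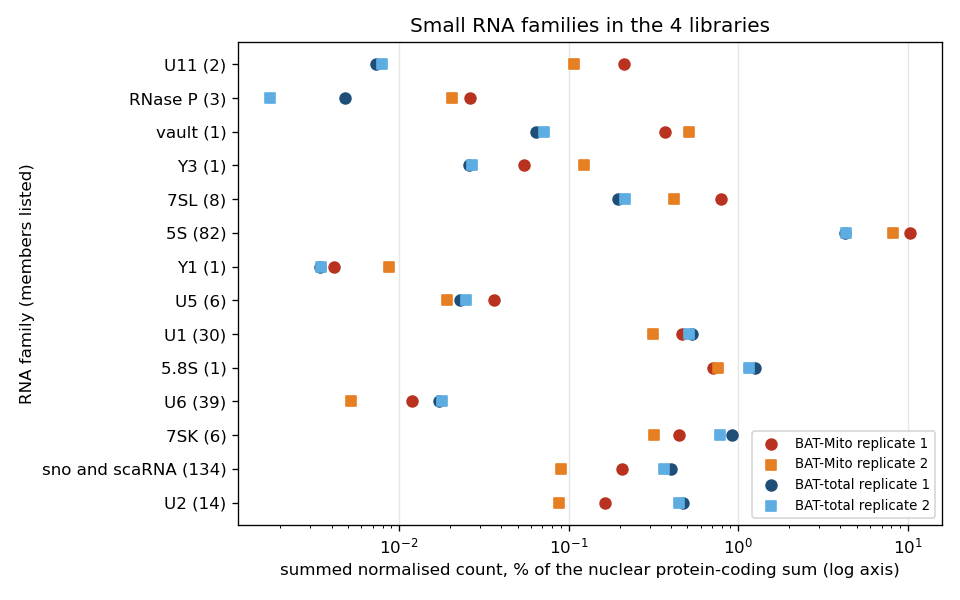
Summed normalised count of each RNA family as a percentage of the nuclear protein-coding sum of the same library, on a log axis, with 1 point per library and the number of listed members in brackets; U12 is left out because BAT-Mito replicate 2 held 0 reads. U11, RNase P, vault, Y3, 7SL, 5S and Y1 lie to the right in both BAT-Mito libraries. U1, 5.8S, U6, 7SK, the snoRNAs with scaRNAs and U2 lie to the left, and U5 overlaps.

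Within the classes the families split. Of the U RNAs, U2 came to 0.164% and 0.0876% of the protein-coding sum in BAT-Mito (mean 0.126% ± 0.0541, SD, n = 2) and to 0.472% and 0.449% in BAT-total (0.460% ± 0.0160), 3.66-fold lower. The 30 U1 genes came to 0.465% and 0.316% against 0.532% and 0.514%, which is 1.34-fold lower. The U11 pair came to 0.213% (95% Wilson interval 0.175 to 0.257%) and 0.108% (0.0845 to 0.138%) against 0.00729% and 0.00790%, which is 21.1-fold higher, and leaving out any 1 library kept its log2 ratio between 3.83 and 4.81. The U5 values of 0.0365% and 0.0191% against 0.0230% and 0.0248% overlapped. Thus U2, which pairs with the branch point of introns, and U11, which pairs with the 5′ splice site of a rare kind of intron, stood on opposite sides of the protein-coding RNAs.

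**Figure D2:**
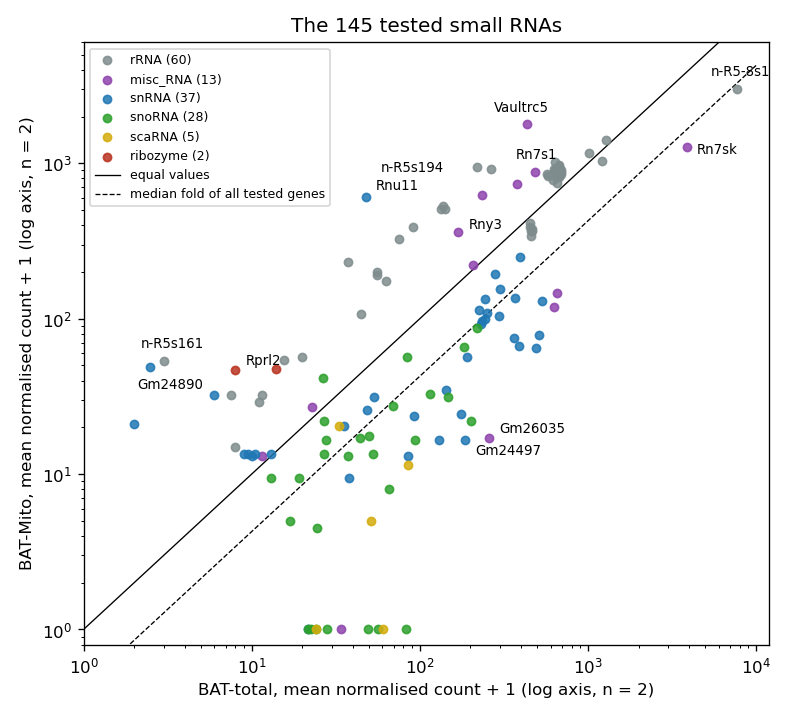
Mean normalised count plus 1 in BAT-total (x axis) and BAT-Mito (y axis), both log axes and each the mean of 2 libraries, for the 145 tested members coloured by class; the solid line is equality and the dashed line the median fold of all tested genes. Most rRNA points lie above the solid line, most snoRNA and scaRNA points below the dashed line, and 11 members lie at the bottom with 0 reads in both BAT-Mito libraries.

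The 5S RNA was the largest group, and 32 of its 82 listed copies shared 1 sequence. As a sum the 82 copies had 42531 and 32929 units in BAT-Mito and 27315 and 27483 in BAT-total, or 10.3% and 8.18% against 4.24% and 4.34% of the protein-coding sum. That is 2.16-fold higher in BAT-Mito, and 2.07-fold for the 32 identical copies alone. Of the 58 tested copies, 43 had both BAT-Mito libraries above both others, 27 of them of that 1 sequence, and 3 had both below, beside 8.59% and 52.1% of all tested genes, with a median log2 fold change of 0.43. The protein partners of 5S, Rpl5 and Rpl11, had log2 fold changes of -0.47 and -0.29 (limma adjusted p = 0.537 and 0.699), below the median of the tested 5S copies. Single 5S copies ran down to -0.56.

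Copies of 1 sequence cannot be told apart by reads inside it. Leaving aside Gm25018 and Rn5s, which were set apart for their values, the other 30 identical copies held 99 to 144 reads each in BAT-Mito replicate 1 and 90 to 130 in replicate 2. The variance of the reads over copies divided by their mean was 2.40 and 2.58 for all 32 copies, and 1.09 and 0.867 for these 30. In BAT-total the same copies ran from 562 to 690 and from 570 to 702 units. One of them, n-R5s144, had 1057 and 842 units in BAT-Mito and 677 and 673 in BAT-total, a log2 fold change of 0.48 ± 0.42 (limma adjusted p = 0.518). Gm25018 stood at 1523 and 1291 in BAT-Mito and 1251 and 1311 in BAT-total, and Rn5s at 1323 and 1008 against 1015 and 1009, so both lay above the rest in every library. The study states that reads of several positions were left out, yet each identical copy held reads, so the value of 1 copy was not read as its own transcript and the copies do not count as separate observations. In all, 80 members fell into 14 groups of identical sequence.

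Copies that differed from this sequence by 1 or more bases varied more, with log2 fold changes of -0.56 to 4.15 over 26 tested against 0.13 to 0.65 over the 32 identical copies. Both BAT-Mito libraries lay above both others in 16 of the 26, beside 8.59% of all tested genes. The 26 include groups of 4, 3, 3, 2 and 2 copies of identical sequence, which are not separate observations. n-R5s161 (2 and 2 units in BAT-total) and n-R5s205 (6 and 7) passed the filter through BAT-Mito alone. n-R5s112, which differs by 1 base, had 441 and 331 units in BAT-Mito and 92 and 88 in BAT-total, a log2 fold change of 2.07 ± 0.44 (SE, limma adjusted p = 0.168, edgeR adjusted p = 0.0458). Its sequence was shared by n-R5s120 (374 and 276 against 79 and 69) and by n-R5s125 (940 and 890 against 277 and 254). n-R5s136, which differs by 1 base elsewhere, had 533 and 483 against 144 and 136. In all 4 copies both BAT-Mito libraries lay above both BAT-total libraries, by 3.44-fold to 4.39-fold. n-R5s194, with 5 differing bases, had 990 and 904 units in BAT-Mito and 236 and 201 in BAT-total (log2 fold change 2.11 ± 0.42, limma adjusted p = 0.153, edgeR adjusted p = 0.0404). The copy n-R5s102, with 3 differing bases, had 441 and 331 against 432 and 465. Its groups overlapped, and its log2 fold change was -0.23 ± 0.44 (limma adjusted p = 0.742). Near it lay 3 copies of 1 sequence with 5 differing bases, at -0.44 to -0.31, and 2 copies of another sequence, at -0.36 and -0.15. A single copy at 1240 and 828 units against 1210 and 1224 (log2 fold change -0.26) lay within the range of the 32 identical copies in every library. It lay above the copies other than Gm25018 and Rn5s in BAT-Mito replicate 1 and both BAT-total libraries. These reached at most 1198, 690 and 702 units there. A further 4 copies of 1 sequence with 1 differing base held 233 to 316 and 90 to 159 units in BAT-Mito and 65 to 116 and 8 to 10 in BAT-total, with log2 fold changes of 2.24 to 3.14. The BAT-total replicates thus lay far apart. In 3 of these copies both BAT-Mito libraries lay above both others, and n-R5s118, at 258 and 90 against 116 and 8, overlapped.

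**Figure D3:**
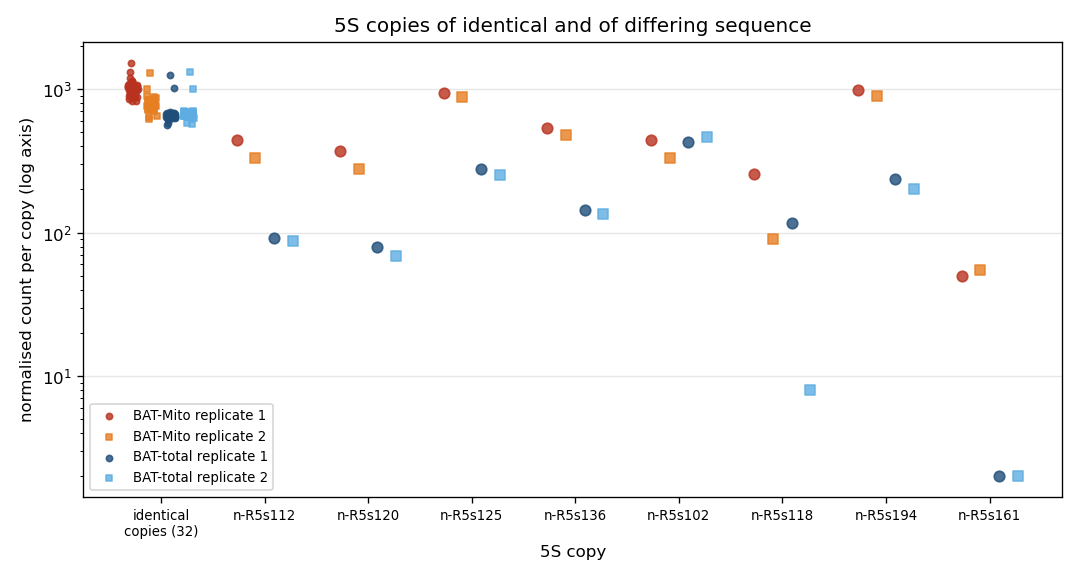
Normalised count per 5S copy on a log axis, with 1 point per library, for the 32 identical copies and for single copies that differ in sequence. The identical copies other than Gm25018 and Rn5s lie close together in each library. n-R5s112, n-R5s120, n-R5s125, n-R5s136, n-R5s194 and n-R5s161 lie higher in both BAT-Mito libraries, and n-R5s102 has about the same level in both fractions.

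The member that passed the limma test upwards was the 5S-like n-R5s161. It had 50 and 55 units in BAT-Mito, which are 6 and 8 reads, and 2 and 2 in BAT-total. Its log2 fold change was 4.15 ± 0.41 (limma adjusted p = 0.0269, edgeR adjusted p = 0.0355), on few reads, and it passed the filter through BAT-Mito alone. Its limma call was lost at a pseudocount of 10 (adjusted p = 0.0916), with the replicate block (0.172) and without either BAT-total replicate (0.459 and 0.460). The 5.8S gene n-R5-8s1, which belongs to the same ribosomal subunit as 5S, had 2929 and 3057 units in BAT-Mito against 8106 and 7359 in BAT-total. Both BAT-Mito libraries lay below both others. Its log2 fold change was -1.37 ± 0.41 (limma adjusted p = 0.255), close to the median of all genes, so 5S and 5.8S stood on opposite sides of equal values. CT010467.1, an rRNA gene whose strand and end differ between the table and GENCODE M21, had 907 and 594 against 642 and 670, and its groups overlapped.

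Of the vault, Y and 7SL RNAs, vault RNA had the widest gap between the groups. Vaultrc5 had 1531 and 2070 units in BAT-Mito and 415 and 453 in BAT-total, or 184 and 300 reads in BAT-Mito. Both BAT-Mito libraries lay above both others by 4.15-fold of the means, with a log2 fold change of 2.04 ± 0.44 (limma adjusted p = 0.175, edgeR adjusted p = 0.0405). The mRNAs of the vault proteins had other values: Mvp, the major vault protein, had a log2 fold change of -0.66 and Tep1 of -1.19. Rny3 had 225 and 497 units against 166 and 171, with both BAT-Mito libraries above but differing from each other (log2 fold change 0.99 ± 0.60, limma adjusted p = 0.403). Relative to the protein-coding sum it was 3.38-fold higher in BAT-Mito, a log2 ratio of 1.76, or 1.05 without BAT-Mito replicate 2. Rny1 had 17 and 35 units against 22 and 22, so its groups overlapped, while its share of the protein-coding sum, 0.00413% and 0.00869% against 0.00341% and 0.00347%, was 1.86-fold higher on 2 and 5 reads, a log2 ratio of 0.90, or 0.26 without BAT-Mito replicate 2. The mRNA of their partner Ro60 had a log2 fold change of -0.11.

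The 7SL RNAs, of the endoplasmic reticulum surface, followed. Rn7s1 had 1207 and 552 units in BAT-Mito and 464 and 507 in BAT-total, and Rn7s2, of the same sequence, 990 and 476 against 369 and 383. Both genes lay above BAT-total in each BAT-Mito library, although replicate 2 lay close to BAT-total, with log2 fold changes of 0.75 ± 0.60 and 0.87 ± 0.57 (limma adjusted p = 0.485 and 0.431). Gm26461, which matches Rn7s1 at 96.5% identity, had 799 and 442 against 214 and 250 (log2 fold change 1.36 ± 0.53, limma adjusted p = 0.299). Rn7s6 had 241 and 200 against 200 and 210 and overlapped. Summed over 8 genes 7SL came to 0.791% and 0.418% of the protein-coding sum in BAT-Mito and 0.195% and 0.214% in BAT-total, 2.96-fold higher. The 9 tested mRNAs for proteins of the signal recognition particle and its receptor had a median log2 fold change of -2.07. Rn7s1, Rn7s2 and Rn7s6 each overlap an exon of another annotated gene on the same strand, and reads of the pair were not told apart here.

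The ribozyme class held 3 RNase P genes, all with few reads. Rprl2 had 50 and 41 units in BAT-Mito, 6 reads in each library, and 8 and 6 in BAT-total. Its groups did not overlap, with a log2 fold change of 2.54 ± 0.44 (limma adjusted p = 0.117, edgeR adjusted p = 0.0738). Rprl2 passed the filter through BAT-Mito alone, where it is high. Rprl3 had 58 and 35 against 22 and 4, also without overlap. Rpph1, the gene of RNase P RNA proper, had 0 and 7 units in BAT-Mito, the latter 1 read, and 1 and 1 in BAT-total, too low to be tested. Rpph1 overlaps an exon of another gene on the same strand, and whether its value near 0 is a low level was not tested. Of the 10 listed mRNAs for RNase P and MRP proteins 2 were tested, with a median of -1.50. Of the mitochondrial protein RNase P, the mRNA of Trmt10c had a log2 fold change of -0.70 and that of Hsd17b10 -1.23. Rmrp, Terc and Rprl1 were not analysed here.

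**Figure D4:**
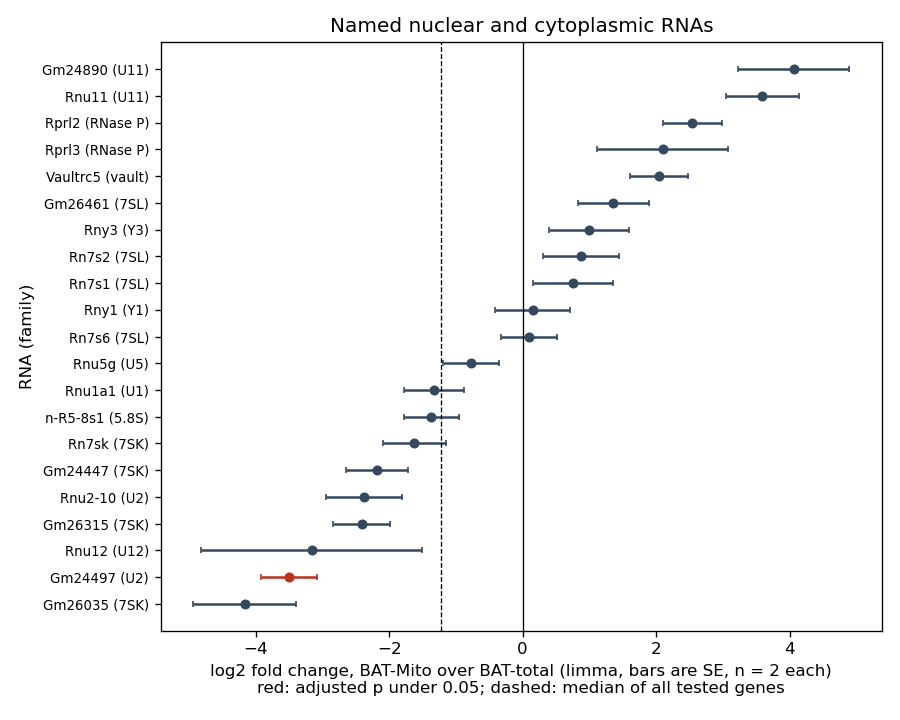
Log2 fold change (BAT-Mito over BAT-total, limma) of named members with bars of 1 SE, from 2 libraries per group; red marks an adjusted p under 0.05, the solid line no change and the dashed line the median of all tested genes, -1.23. U11, RNase P, vault and 7SL genes lie to the right of both lines, and the 7SK and U2 genes drawn here to the left of the dashed line.

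As a share of the protein-coding sum, U11 differed most of the U RNA families compared, while its groups overlapped with the sum of all nuclear genes. Rnu11 had 799 and 414 units in BAT-Mito, 96 and 60 reads, and 46 and 48 in BAT-total. Both BAT-Mito libraries lay far above both others, by 12.9-fold of the means, with a log2 fold change of 3.59 ± 0.55 (limma adjusted p = 0.0845, edgeR adjusted p = 0.00979). It thus passed edgeR and missed limma. Gm24890, the U11-like gene, had 75 and 21 against 1 and 2 (log2 fold change 4.06 ± 0.83, limma adjusted p = 0.160), or 3.17 without BAT-Mito replicate 1 and 4.96 without replicate 2. Gm24890 passed the filter through BAT-Mito alone, where it is high. Rnu12, the U12 RNA that works beside U11 in the minor spliceosome, had 17 and 0 units in BAT-Mito, which are 2 and 0 reads, and 36 and 38 in BAT-total. U11 and U12 therefore had opposite directions in these libraries, with 2 reads behind U12 in BAT-Mito (log2 fold change -3.16 ± 1.65, limma adjusted p = 0.360). Without BAT-Mito replicate 1 that of Rnu12 was -5.25 and without replicate 2 -1.08.

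The U2 genes all had negative fold changes. Of 10 tested, 9 had both BAT-Mito libraries below both BAT-total libraries, beside 52.1% of all tested genes, with a median of -2.68, lower than the median of all genes by 1.45. Gm24497 had 17 and 14 units in BAT-Mito, 2 reads in each, against 190 and 180, and was called lower by both tools (log2 fold change -3.50 ± 0.42, limma adjusted p = 0.0436, edgeR adjusted p = 0.0160). Its limma call was lost with TMM (adjusted p = 0.0620), median ratios (0.0906), protein-coding totals (0.0781), a pseudocount of 10 (0.0817), the replicate block (0.266) and without either BAT-total replicate (0.620 and 0.609). Gm26316 had 100 and 55 against 532 and 488, Gm23971 had 92 and 35 against 496 and 486, and Gm24950 had 175 and 83 against 550 and 510. All of these lay well below BAT-total. edgeR called 6 of the U2 genes lower and limma 1, beside 2.5% and 4.41% of all genes, and the 10 tested include 4 and 2 copies of identical sequence, which are not separate observations. The reference gene Rnu2-10, 1 of 4 copies of identical sequence, had 100 and 48 against 378 and 350 (log2 fold change -2.37 ± 0.57, limma adjusted p = 0.200).

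U1 differed less. Of 16 tested U1 genes 12 had both BAT-Mito libraries below, beside 52.1% of all tested genes, with a median of -1.04, and 7 of the 12 share 1 sequence. By either tool 0 were called, with 3 lower at an unadjusted limma p under 0.05, beside 14.9% of all genes. Rnu1a1 had 108 and 76 units in BAT-Mito and 230 and 229 in BAT-total (log2 fold change -1.33 ± 0.45, limma adjusted p = 0.276), and it shares its sequence with 6 other listed copies. Rnu1b6 had 25 and 0 against 12 and 7 and overlapped. Rnu5g, a U5 RNA, had 33 and 28 against 49 and 56, with no overlap but a log2 fold change of -0.77 ± 0.42. Of 39 listed U6 genes 36 had 0 reads in both BAT-Mito libraries and 2 were tested. Gm22580 had 0 and 0 reads against 20 and 21 units, which lies below the level of 3 reads in BAT-Mito (22.8 units), so no fold is given for it although limma called it lower. Gm22306 had 33 and 7 against 2 and 0 and passed the filter through BAT-Mito alone. The 5 tested mRNAs for Sm and U snRNP proteins had a median log2 fold change of -1.15, and the 3 for Lsm proteins and the U6 factor Sart3 -1.86.

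The 7SK RNA stands for the nucleoplasm. Rn7sk had 1498 and 1042 units in BAT-Mito, 180 and 151 reads, and 4288 and 3440 in BAT-total. Both BAT-Mito libraries lay below both others, 3.04-fold of the means, with a log2 fold change of -1.62 ± 0.47 (limma adjusted p = 0.245, edgeR adjusted p = 0.0651). Its copies lay lower still. Gm24447 had 175 and 117 against 681 and 621 and Gm26315 had 133 and 104 against 656 and 607, with log2 fold changes of -2.18 ± 0.46 and -2.41 ± 0.43 (edgeR adjusted p = 0.0459 and 0.0367). Gm26035, at 96.1% identity to Rn7sk, had 25 and 7, which are 3 reads and 1 read, against 274 and 241 (log2 fold change -4.16 ± 0.77, edgeR adjusted p = 0.0166, or -5.01 without BAT-Mito replicate 1 and -3.31 without replicate 2), and Gm24146 had 0 reads in both BAT-Mito libraries against 34 and 32 units. Gm22058 was the exception, with 17 and 7 against 10 and 11. As a share of protein-coding RNA the family was 2.22-fold lower in BAT-Mito, and Rn7sk differed less between the BAT-Mito replicates than Malat1 did. The mRNAs of its partners ranged around a median of -2.14, with Hexim1 at -2.52 and Larp7 at -0.22 among 6 tested.

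The guide RNAs of the nucleolus and the Cajal body were the lowest classes. Of the 134 listed snoRNAs and scaRNAs 101 had 0 reads in both BAT-Mito libraries, while 117 were above 0 in both BAT-total libraries. Of all 17259 genes 6484 had 0 reads and 14792 were above 0 in the same way. BAT-total values go down to 1 unit, below the worth of 1 read in BAT-Mito, and only 9 of the 101 reached the test. Of 33 tested, 27 had both BAT-Mito libraries below both others and 0 had both above, beside 52.1% and 8.59% of all tested genes, and the median log2 fold change was -2.48. These 27 include the 9 with 0 reads, which passed the filter through BAT-total alone and had to lie below. Those with the highest mean counts showed the same: Snora21 had 158 and 14 units in BAT-Mito against 217 and 216, Snora23 had 25 and 104 against 186 and 176, and Snord17 had 42 and 0 against 205 and 194. BAT-total was tight in each case while the BAT-Mito replicates differed, on 0 to 19 reads, and none of these 3 was called. Scarna2, the guide RNA of the Cajal body, had 8 and 0 against 49 and 52. Snord118, the U8 RNA, had 67 and 14 against 26 and 25, so its groups overlapped.

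limma called 9 of the 33 lower and edgeR 4, beside 4.41% and 2.5% of all genes, with 9 of 9 limma calls at 0 reads in both BAT-Mito libraries. The count of these 9 is therefore a description. Gm25788 stood at 83 and 80 units in BAT-total, Scarna13 at 64 and 55, Snora17 at 59 and 52 and Gm25848 at 47 and 49. Set against 3 reads per BAT-Mito library, they were at least 3.57-fold, 2.61-fold, 2.43-fold and 2.10-fold lower, and the first 3 were also called by edgeR (adjusted p = 0.0254, 0.0404 and 0.0423). Snora57 was at least 1.18-fold and Gm23442 and Scarna6 at least 1.01-fold lower. Snora62 (24 and 19) and Gm23245 (25 and 16) lay at or under that level. Gm25835, with 33 and 28 units against 159 and 133, was the guide RNA with reads in both BAT-Mito libraries that edgeR called lower (adjusted p = 0.0440).

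Most guide RNAs are cut from introns of host genes, so their hosts serve as a comparison within each library. Of 23 tested guide RNAs with a tested host, 16 had a lower fold change than the host, with a median difference of -1.35 on the log2 scale. The 16 include 5 with 0 reads in both BAT-Mito libraries, which passed the filter through BAT-total alone. Among the 18 with reads in BAT-Mito 11 lay below the host, with a median difference of -1.17. Several of the 18 had 0 reads in 1 BAT-Mito library, such as Gm24233 (42 and 0 against 28 and 24 units). On this scale a 0 can draw the value down. Guide RNAs with reads in both BAT-Mito libraries lay on either side of the host. Their differences were -1.99, -1.47, -1.35, -1.27 and -0.12, and 0.21, 0.35, 0.42, 1.09 and 1.33. Gm25788, with 0 reads, lies in Pabpc4, which had 8 and 48 units in BAT-Mito and 74 and 92 in BAT-total. Gm22154 in the same host had 17 and 7 against 39 and 34. Snora62 lies in Rpsa, which had 566 and 711 against 424 and 392, while Snora62 itself lay at or under the level of 3 reads in BAT-total (24 and 19 units), so no fold is read from it. Gm26448, also in Rpsa, had 25 and 0 against 27 and 25. Gm22422 lies in Trmt10c, a subunit of the mitochondrial RNase P, and had 50 and 14 against 114 and 114. Others lay above their host, such as Gm22009 in Kpna4 at -0.74 against -2.07. Of the 20 hosts limma called 0, with 1 lower at an unadjusted p under 0.05, beside 14.9% of all genes, and edgeR called 1, Slc25a3, which holds Gm24119.

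**Figure D5:**
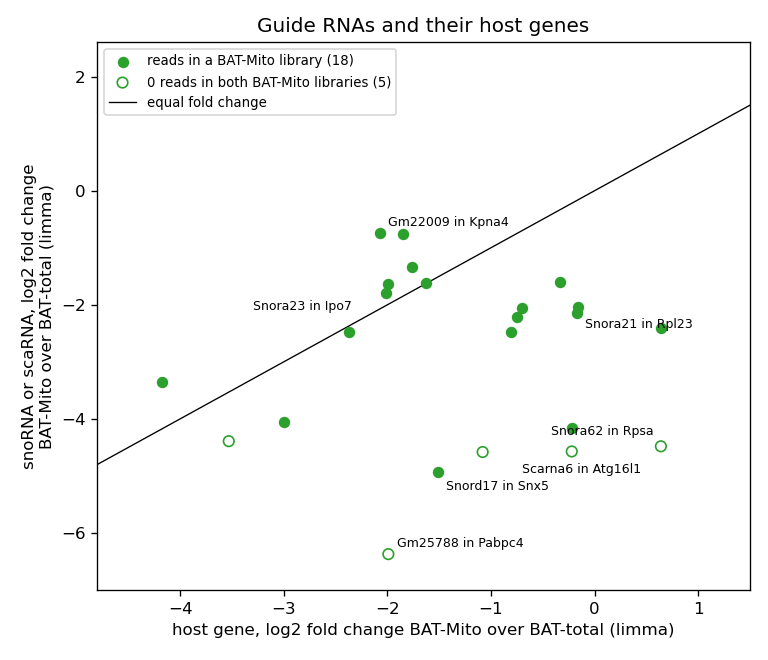
Log2 fold change (BAT-Mito over BAT-total, limma) of 23 tested snoRNAs and scaRNAs on the y axis against that of the gene they lie in on the x axis, with open circles for the 5 that had 0 reads in both BAT-Mito libraries. Of the points 16, the 5 open circles among them, lie below the line of equal fold change and 7 above it.

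The form of the guide RNA was read from the sequence. Of the 134 listed, 64 had ACA 3 bases before the end, the mark of H/ACA guides, and 33 had TGATGA in the first 20 bases and CTGA in the last 15, the marks of C/D guides; of the other 225 members 0.0% had either. Only 1 of the 33 tested guide RNAs was shorter than 100 bases, against 36 of the 134 listed, so the tested ones were mostly of the longer H/ACA form. Of the 20 tested with the ACA mark, 7 had 0 reads in both BAT-Mito libraries and passed the filter through BAT-total alone. With the C/D marks 6 were tested. Of the mRNAs for C/D proteins 4 were tested, among them Fbl at 1.02 and Nop58 at -1.30, and for H/ACA proteins 1, Dkc1 at -1.98.

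Over the 10 lists of partners 41 genes were tested, of which limma called 0 and edgeR 1, Srp72, and 6 were lower at an unadjusted limma p under 0.05, beside 14.9% of all genes. The median of 4 mRNAs for mitochondrial RNase P and RNA import was -1.01 and that of 4 for 5S and La or Ro proteins -0.38. For reference, the 4 nuclear lncRNAs had a median log2 fold change of -2.22, the 3 tested snoRNA host lncRNAs -0.22 and the 4 cytosolic mRNAs -0.28, while all 37 mitochondrially encoded genes were called higher, with a median of 7.09. Of the RNAs of the nucleus, 7SK, U2 and the guide RNAs had medians of -2.29, -2.68 and -2.48, U1 and U5 -1.04 and -0.81, and U11 3.82. The guide RNAs here include 9 with 0 reads in both BAT-Mito libraries, and 7SK includes Gm24146. These passed the filter through BAT-total alone. The U11 median is that of 2 genes, of which Gm24890 passed through BAT-Mito alone. Of those of the cytoplasm, 5S and 7SL had 0.43 and 0.81 and 5.8S -1.37, so the families of 1 compartment had different medians. The 5S median was 0.38 over the 32 identical copies and 1.8 over the other 26 tested. That of 7SL rests on 4 genes, of which Rn7s1 and Rn7s2 share a sequence. Endothelial markers had a median of -5.07, macrophage markers 2.01, muscle markers 1.67, liver markers 6.02, red blood cell markers -0.17 and brown adipocyte markers -1.77, with 0 called by limma, and edgeR called 3 endothelial markers lower and 2 liver markers higher.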

How the data were processed

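RNA from 4 libraries, BAT-Mito and BAT-total with 2 each, had been made with a stranded total RNA kit for low input, with the fragmentation time of mitochondrial samples adjusted. The submitters' notes name Trimmomatic 0.39, STAR 2.7.10a, featureCounts 2.0.2 and DESeq2 1.30.1 on GRCm38. The authors deposited 1 table whose values are a signal, gene counts divided by a size factor per library and rounded. Reads were recovered from the steps of the deposited signal in BAT-Mito, where 100.0% of the values came out as whole reads, and not in BAT-total. The floor of 3 reads there is 25.0 and 20.7 units.

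Genes with a mean of at least 10 were tested with limma 3.58.1 in R 4.3.3 on log2(value + 1), and edgeR 4.0.16 was run on reads with BAT-total values taken as reads. A fold change on this scale understates that of low genes, and a gene with 0 reads in 1 BAT-Mito library may come out too low. Both tools were tested on simulated data. Families came from symbols or from BLAST 2.17.0 matches to named RNAs (80% identity, 60% coverage). Biotype, host and exon overlap came from the table and GENCODE M21, whose coordinates were the same for 358 of 359 members. Small RNAs with near-identical copies are uncertain as single genes. Sums were divided by the nuclear protein-coding sum of the library.

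The members and lists were chosen with earlier results of these data known. Named were members with family symbols, the 5 with the highest mean per class, those called, up to 5 per direction with the largest fold change without overlap, and hosts; others named (7SK, U2, 5S and 7SL copies, guide RNAs beside hosts, edgeR calls) were chosen after their values were seen. Alternatives covered pseudocount, filter, scaling, tool, replicate block, denominator and leaving out each library. Some sequences are not reported here.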

Additional observations from a re-analysis of the deposited data

How the results depend on the processing

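Calls depended on the settings. Members called higher and lower in BAT-Mito were 1 and 12; they were 0 and 0 at a pseudocount of 10, 11 and 126 with no filter, 0 and 2 at a mean of at least 50, 0 and 144 scaled to all genes, and 6 and 14 with edgeR, and leaving out each library gave 0 to 31 and 0 to 64. With TMM, median ratios or protein-coding totals they were 1 and 11. The median log2 fold change of all genes was -1.23, and -0.90, -0.62, -0.63 and -7.15 with TMM, median ratios, protein-coding totals and totals of all genes. The cause was not tested, except that the total of all genes is mostly mitochondrially encoded RNA in BAT-Mito.

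With the replicate number as a block, limma called 0 members higher and 0 lower. Nothing in the labels pairs the replicates, and the correlation of same-numbered deviations was 0.112 over all tested genes and 0.0295 over the members.

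Scaling to all genes moved the median of all genes to -7.15, and with this shift 25 of 61 named members turned negative: Rn7s1 -6.03, Rn7s2 -5.91, Rn7s6 -6.63, Gm26461 -5.41, Gm22058 -5.76, Rny1 -6.10, Rny3 -5.76, Vaultrc5 -4.75, Rprl2 -3.81, Rprl3 -4.25, Rnu11 -3.16, Gm24890 -1.71, Gm22306 -0.94, CT010467.1 -6.62, Gm25018 -6.66, Rn5s -6.60, n-R5s144 -6.30, n-R5s125 -5.00, n-R5s112 -4.68, n-R5s120 -4.63, n-R5s136 -4.91, n-R5s118 -4.38, n-R5s194 -4.67, n-R5s161 -1.89 and Snord118 -6.05. n-R5s102 became 0.12 with TMM and 0.42 with median ratios or protein-coding totals, and Rnu1b6 0.27 with edgeR. Leaving out single libraries gave CT010467.1 -0.14 to 0.47, Gm22058 -0.52 to 0.65, Rn5s -0.006 to 0.39, Rn7s6 -0.035 to 0.23, Rnu1b6 -3.35 to 1.35, Rny1 -0.35 to 0.65 and Snord118 -0.82 to 1.36. Values also moved by over 1.5 times for Gm22154 (-2.23 to -1.06), Gm22306 (2.21 to 4.29), Gm22422 (-2.94 to -1.17), Gm23971 (-3.77 to -2.40), Rprl3 (1.00 to 3.20), Scarna2 (-5.69 to -2.52), Snora21 (-3.86 to -0.45), Snora23 (-2.81 to -0.79), Snord17 (-7.65 to -2.22) and n-R5s118 (0.39 to 4.09).

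Nuclear pseudogenes took 95.3% and 94.2% of the nuclear sum in BAT-Mito and 6.86% and 8.19% in BAT-total. With all nuclear genes as the denominator, the log2 class share ratios were -3.33 for rRNA, -3.79 for misc_RNA, -4.78 for snRNA, -5.56 for snoRNA, -6.26 for scaRNA and -1.36 for ribozymes, against 0.86, 0.40, -0.56, -1.31, -2.04 and 2.84. Without the highest member, rRNA was 1.10 and misc_RNA 1.14, and without members that overlap another exon misc_RNA was 0.12. Leaving out each library gave 0.70 to 1.01 for rRNA, 0.26 to 0.53 for misc_RNA, -0.97 to -0.24 for snRNA, -2.05 to -0.82 for snoRNA, -2.43 to -1.73 for scaRNA and 2.28 to 3.75 for ribozymes. The U5 share ratio was -0.32 to 0.61 when single libraries were left out. Depth limits what BAT-Mito can show: 187 of the 359 members had 0 reads in both libraries.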
